A study of Mus musculus with 90 samples.

Results

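The 18 livers described here came from wild-type mice on caloric restriction, 3 mice at each of 6 times of day. They were picked by their sample titles, which name the restricted diet, the wild-type genotype and a time from ZT0 to ZT20, and they are 18 of the 90 libraries in the series. The mice were C57BL/6J males of genotype GRfl/fl, in which Nr3c1, the glucocorticoid receptor gene, is flanked by loxP sites and no Cre is present. From 12 weeks of age they lived singly on chow, the ration was lowered by 10% each week for 4 weeks to 40% below normal, and it was then held there. Food came at ZT12, and ZT0 is 6 a.m. Each liver is from a different mouse, so a daily profile joins different animals, and 1 cycle was sampled every 4 h. For comparison there are 22 livers of GRfl/fl males on the control diet, chow with no cut in calories that was limited to the night in the final week, and 18 livers of GR LKO (GRfl/fl x Alb-Cre) males on the same restriction. In GR LKO mice the albumin promoter drives Cre, which removes the receptor from hepatocytes and leaves it in the other cells of the liver.

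Almost every hepatocyte holds a molecular clock. BMAL1, the product of Arntl, pairs with CLOCK or NPAS2 on E-boxes and switches on the Period and Cryptochrome genes, whose proteins later shut the pair off, while REV-ERB repressors time Arntl itself. In liver, meals and hormones such as insulin and glucocorticoids add daily swings of their own to genes of sugar, fat, amino acid and bile acid metabolism.

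RNA from whole liver was sequenced, and the deposited table gives an estimated count for each gene in each library. The 18 libraries held 14235473 to 20788575 counts, with a median of 17697464. The 10 most abundant genes took 21.4 to 25.8% of a library, and mitochondrial genes took 8.97 to 14.1%. Levels are given as CPM, counts scaled to a common library size after TMM scaling, which do not allow for gene length. The profile of each gene is therefore compared with itself across the day. Where a gene is called the most abundant, its counts were the highest, without regard to length. Of 27654 gene IDs, 12014 averaged at least 10 counts per liver and were tested. The first principal component held 27.0% of the variance and the second 23.2%. In 17 of the 18 livers the most similar other liver came from the same time, and the exception was ZT4 replicate 3, which lay closest to a ZT0 liver.

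Hepatocyte markers dominated every library. The 7 markers, of which Alb is the most abundant, summed to 107000, 110000 and 108000 CPM at ZT0, 105000, 117000 and 126000 at ZT4, 129000, 112000 and 106000 at ZT8, 158000, 159000 and 163000 at ZT12, 128000, 135000 and 129000 at ZT16, and 120000, 135000 and 121000 at ZT20. The ZT12 livers stood above all 15 others. ZT12 replicate 3 also stood apart in another way, since it alone held markers of exocrine pancreas. Their 22314 counts made up 0.107% of that library, against 171 counts over the other 17 libraries together and at most 37 in any of them. Of the 10 pancreas markers 9 passed 100 counts there, 4 of those (Cela3b, Cpa1, Cpb1 and Pnlip) were at 0 in the other 17, Prss1 was at 0 in all 18, and Amy2a5 was the most abundant at 417 CPM. In bulk liver, fewer cells of a type and less RNA per cell cannot be told apart.

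Across the day, 4308 of the 12014 tested genes had a 24 h rhythm by JTK_CYCLE, a rank test with an exact null distribution (adjusted p under 0.05 and amplitude above 0.1), which is 35.9%. Any change over the 6 times, by the edgeR quasi-likelihood F test, was called in 8049 genes (67.0%). Both tests called 4133 genes, and 3916 changed over the day without a 24 h call. Without both ZT4 replicate 3 and ZT12 replicate 3 the rhythmic count was 3376, and without the 6 livers numbered replicate 1, 2 or 3 it was 1187, 1070 or 1055. A cosine tested in edgeR called 6701 of the 12014, and without ZT12 replicate 3 alone the rhythmic count was 3601. Below, an adjusted p for a 24 h rhythm is the exact one of JTK_CYCLE, and one for any change, a 12 h component or a step is from edgeR. A cosine fitted to log2 CPM gave each rhythmic gene a peak hour and an amplitude, the log2 distance from the daily mean to the peak. The median fold from fitted trough to fitted peak was 1.74 in the rhythmic genes, with quartiles of 1.46 and 2.35, against 1.45 over all tested genes. At least 2-fold was reached by 1567 genes, at least 4-fold by 378 and at least 10-fold by 72. The median standard error of a peak hour was 0.695 h.

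Peaks filled the whole day. By 4 h windows centred on the sampled times, 578 rhythmic genes peaked around ZT0, 820 around ZT4, 676 around ZT8, 689 around ZT12, 813 around ZT16 and 732 around ZT20. With TMM the fullest single hours were ZT4 to ZT5 with 236 genes and ZT16 to ZT17 with 233, and the emptiest was ZT9 to ZT10 with 130. Scaling by library totals in place of TMM put 3707 of the 4308 genes in the same window, with 670, 990, 617, 543, 655 and 833 genes in the windows from ZT0 to ZT20. The largest median folds belonged to the windows around ZT20 (1.89) and ZT0 (1.88), and the smallest to ZT8 (1.62). Genes with at least 4-fold swings were most common around ZT20, where 91 were found, and least common around ZT8, where there were 43.

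**Figure D1:**
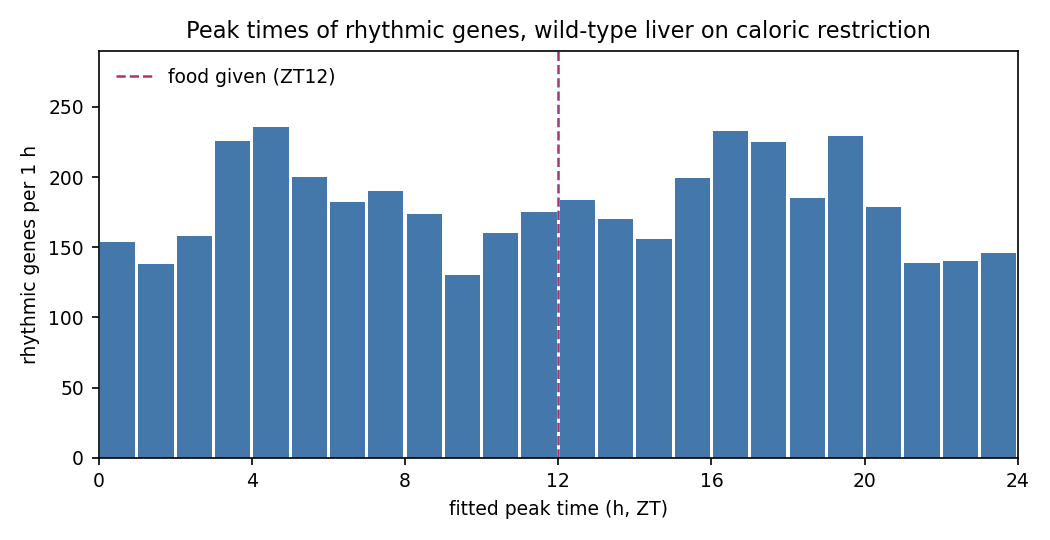
Number of rhythmic genes by fitted peak hour in wild-type livers on caloric restriction (x axis, hours after ZT0 in 1 h bins; y axis, genes). With TMM every hour holds between 130 and 236 genes, with the most between ZT4 and ZT5 and between ZT16 and ZT17. With library totals the window around ZT16 holds 655 genes in place of 813.

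Activators of the core clock peaked in the dark phase. Of 5 activators, 4 were rhythmic (80%, against 35.9% of all tested genes), 2 in the ZT16 window and 2 in the ZT20 window. The median fold was 5.47, against 1.45 over all tested genes. Arntl, which encodes BMAL1, read 21.96, 26.6 and 30.7 CPM at ZT0, 4.301, 4.63 and 6.26 at ZT4, 0.22, 0.691 and 0 at ZT8, 13.8, 6.13 and 10.5 at ZT12, 24.9, 33.1 and 22.8 at ZT16, and 30.7, 30.4 and 36.2 at ZT20. Its 3 ZT8 livers were the lowest of the 18, and all 3 ZT20 livers lay above all livers of ZT4, ZT8 and ZT12. The fitted peak was at 19.6 ± 0.6001 h, with an amplitude of 2.88 ± 0.45 and adjusted p = 7.38e-05. Where a gene is close to 0 at some time, as here, the amplitude depends on the prior count of 2. Npas2, the paralogue of Clock, stood at 13.5 ± 2.7 CPM at ZT20 and at 0.0546 ± 0.0946 at ZT12, where 2 of the 3 livers had no count, and it peaked at 21.1 ± 0.3104 h (adjusted p = 0.00142). Clock itself ran from 5.71 ± 2.02 CPM at ZT8 to 32.9 ± 7.17 at ZT16, with a peak at 17.2 ± 0.706 h (adjusted p = 0.0229). That call held in 14 of 18 fits that each left out 1 liver, with an adjusted p of up to 0.055. Rora, a further activator, passed the test for any change (adjusted p = 9.18e-05) with its highest mean at ZT12, 138 ± 22.8 CPM, but not the rank test for a 24 h rhythm (adjusted p = 0.468). With a cosine in edgeR its adjusted p was 0.028.

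Repressors of the clock had the largest median fold of the 33 gene lists. Of 10 repressors, 9 were rhythmic (90%, against 35.9% of all tested genes), 5 of them in the ZT12 window (4 with library totals). The median fold was 17.8 against 1.45 over all tested genes. Nr1d1, which encodes the repressor REV-ERBα, read 46.4, 63.2 and 33.8 CPM at ZT0, 145, 220.5 and 157 at ZT4, 78.4, 51.6 and 91.7 at ZT8, 16.2, 13.9 and 14.5 at ZT12, 0.926, 1.179 and 1.02 at ZT16, and 1.07, 0.974 and 1.74 at ZT20. The 3 livers of ZT4 lay above the 15 others, and the 6 livers of ZT16 and ZT20 lay below all others. Its peak was at 5.21 ± 0.238 h and its amplitude 3.83 ± 0.24, a fitted fold of 201.2 (adjusted p = 0.000129). Nr1d2, its paralogue REV-ERBβ, followed at 7.19 ± 0.301 h, with 153 ± 11.8 CPM at ZT8 and 12.4 ± 2.32 at ZT16 (adjusted p = 0.000361). Period genes came next, by fitted peak in the order Per3, Per1, Per2, and the differences between their peaks were not tested. Per3 peaked at 9.63 ± 0.607 h (adjusted p = 0.00266) and Per1 at 10.5 ± 0.457 h (adjusted p = 0.00191). Per2, a core subunit of the repressor complex, read 2.33, 4.71 and 3.55 CPM at ZT0, 19.2, 17.9 and 12.3 at ZT4, 69.8, 68.2 and 45.03 at ZT8, 65.6, 60.1 and 65.7 at ZT12, 109.7, 106 and 117 at ZT16, and 23.8, 16.4 and 20.8 at ZT20. All 3 ZT16 livers lay above the other 15, while the fitted peak lay earlier, at 12.6 ± 0.455 h (adjusted p = 0.00821). Cry2 peaked at 10.1 ± 0.378 h with 72.9 ± 3.04 CPM at ZT8 (adjusted p = 0.00266). Cry1, the late Cryptochrome, held 43.0 to 54.5 CPM in all 3 ZT12 livers and 40.5 to 50.7 at ZT16 and ZT20, against at most 16.5 in the 9 others (peak 16.5 ± 0.366 h, adjusted p = 0.0106).

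Ciart, which encodes the repressor CHRONO, read 0.1399, 0.105 and 0.338 CPM at ZT0, 12.3, 16.2 and 3.28 at ZT4, 50.4, 45.7 and 43.7 at ZT8, 26.3, 30.6 and 37.3 at ZT12, 11.1, 7.56 and 10.9 at ZT16, and 1.07, 0.401 and 0.955 at ZT20. No ZT0 or ZT20 liver exceeded 1.071 CPM, and the 3 ZT8 livers were the highest (peak 10.2 ± 0.332 h, adjusted p = 0.00356). Bhlhe40, which encodes DEC1, averaged 149 ± 20.2 CPM at ZT8 and 25.5 ± 5.53 at ZT0 (adjusted p = 0.0106). Bhlhe41, which encodes DEC2, was higher in the 6 livers of ZT4 and ZT8 than in the 12 others, none of which passed 0.911 CPM. It passed the test for any change (adjusted p = 3.61e-05) but not the rank test (adjusted p = 0.164), and with a cosine in edgeR its adjusted p was 0.00373.

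The bZIP factors carry the clock's output to D-boxes. Of the 4, 3 were rhythmic (75%, against 35.9% of all tested genes), 2 in the ZT8 window and 1 in the ZT12 window. The median fold was 8.70, against 1.45 over all tested genes. Dbp read 0.373, 0 and 0.676 CPM at ZT0, 24.4, 24.8 and 15.5 at ZT4, 44.1, 30.6 and 47.3 at ZT8, 3.84, 7.21 and 5.79 at ZT12, 1.03, 0.902 and 0.7399 at ZT16, and 0.238, 0 and 1.07 at ZT20. Every ZT4 and ZT8 liver lay above every other liver, and the peak was at 7.87 ± 0.426 h with an amplitude of 3.67 ± 0.41 (adjusted p = 0.00104). Tef, its relative, ran from 46.98 ± 5.92 CPM at ZT0 to 429 ± 41.1 at ZT8 (peak 9.11 ± 0.293 h, adjusted p = 0.00142). Hlf, the third of these activators, swung less, with a fold of 2.04 and a peak at 12.4 ± 0.455 h (adjusted p = 0.00191). Nfil3, which competes with them for D-boxes, was low in the 6 livers of ZT4 and ZT8 and higher in the 12 others. Its means were 49.5 ± 4.81 CPM at ZT0, 7.55 ± 3.59 at ZT4, 3.97 ± 0.334 at ZT8, 55.2 ± 6.22 at ZT12 and 29.4 ± 2.66 at ZT16. That profile passed the test for a 12 h component (adjusted p = 1.74e-06) and not the rank test for 24 h (adjusted p = 0.336), and its adjusted p with a cosine in edgeR was 0.0233.

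**Figure D2:**
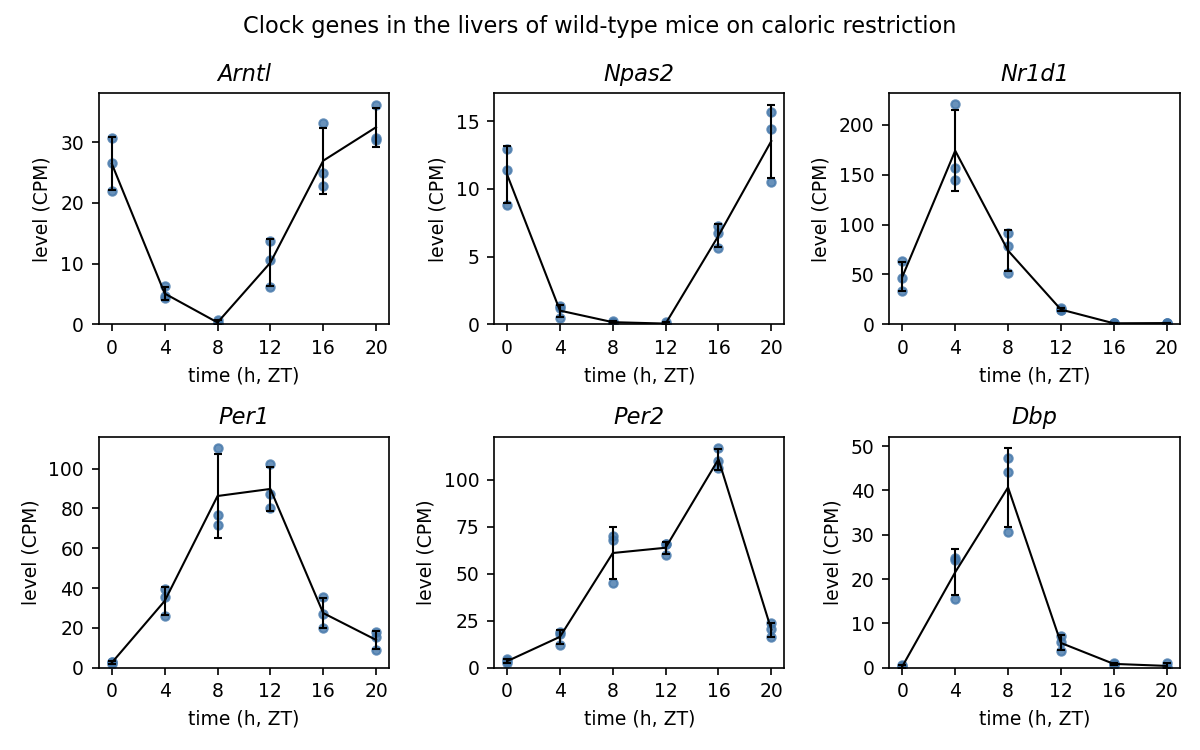
CPM of 6 clock genes in each of the 18 livers (points) by time of day (x axis, ZT in hours; y axis, CPM), with the mean and standard deviation of the 3 livers per time. Arntl is high from ZT16 to ZT0, Npas2 at ZT20 and ZT0, Nr1d1 at ZT4, Dbp at ZT8, Per1 at ZT8 and ZT12, and Per2 at ZT16.

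Promoters of clock genes were searched for the letters that the clock's own factors bind. The window runs 300 bases across each gene's start, from RefSeq on build GRCm38.p6, and 9318 of the 12014 tested genes matched an entry. The E-box CACGTG, which reads the same on both strands, was found in 7.24% of all 27025 promoters, in 10.1% of those of tested genes and in 10.8% of those of rhythmic genes. By window it was in 9.31% at ZT0, 11.1% at ZT4, 12.5% at ZT8, 12.2% at ZT12, 9.72% at ZT16 and 9.97% at ZT20. Among clock genes with an entry it was present in 4 of 8 repressors, 1 of 4 bZIP factors and 0 of 4 activators. Of these 5, Ciart with 3 copies, Per1, Cry1 and Tef are shown as examples. The D-box TTATGTAA, or TTACATAA on the other strand, was in 0.955% of all promoters and in 1 of the 8 repressors, Per3, which had 2. The sequences below run 5′ to 3′ on the gene's strand, with the motif in capitals: Ciart at chr3:95882179-95882478 on the minus strand, Per1 at chr11:69098699-69098998 on the plus strand, Cry1 at chr10:85185005-85185304 on the minus strand, Tef at chr15:81802423-81802722 on the plus strand, and Per3, whose capitals are D-boxes, at chr4:151044616-151044915 on the minus strand. A match is a description of the letters, not a measured site.
Ciart: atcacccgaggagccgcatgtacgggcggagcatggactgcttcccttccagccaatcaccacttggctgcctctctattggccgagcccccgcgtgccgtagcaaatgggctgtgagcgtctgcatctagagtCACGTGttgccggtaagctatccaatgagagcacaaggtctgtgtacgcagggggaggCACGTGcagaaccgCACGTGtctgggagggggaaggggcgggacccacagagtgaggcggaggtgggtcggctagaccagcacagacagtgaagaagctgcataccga
Per1: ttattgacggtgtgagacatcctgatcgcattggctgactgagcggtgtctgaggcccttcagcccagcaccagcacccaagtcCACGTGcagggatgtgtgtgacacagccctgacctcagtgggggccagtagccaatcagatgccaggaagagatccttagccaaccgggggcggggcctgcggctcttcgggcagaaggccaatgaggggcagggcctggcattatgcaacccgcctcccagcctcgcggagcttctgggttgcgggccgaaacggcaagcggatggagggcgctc
Cry1: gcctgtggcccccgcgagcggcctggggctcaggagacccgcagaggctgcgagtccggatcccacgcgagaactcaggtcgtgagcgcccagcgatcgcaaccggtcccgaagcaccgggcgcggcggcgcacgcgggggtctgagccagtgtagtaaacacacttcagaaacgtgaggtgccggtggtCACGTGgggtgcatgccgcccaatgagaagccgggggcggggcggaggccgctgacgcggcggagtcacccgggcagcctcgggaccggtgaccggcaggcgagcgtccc
Tef: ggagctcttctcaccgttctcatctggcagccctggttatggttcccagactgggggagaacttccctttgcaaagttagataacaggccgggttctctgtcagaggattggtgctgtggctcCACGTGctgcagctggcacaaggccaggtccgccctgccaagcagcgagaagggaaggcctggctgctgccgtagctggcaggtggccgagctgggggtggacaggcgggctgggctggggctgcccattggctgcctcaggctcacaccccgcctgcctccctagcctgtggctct
Per3: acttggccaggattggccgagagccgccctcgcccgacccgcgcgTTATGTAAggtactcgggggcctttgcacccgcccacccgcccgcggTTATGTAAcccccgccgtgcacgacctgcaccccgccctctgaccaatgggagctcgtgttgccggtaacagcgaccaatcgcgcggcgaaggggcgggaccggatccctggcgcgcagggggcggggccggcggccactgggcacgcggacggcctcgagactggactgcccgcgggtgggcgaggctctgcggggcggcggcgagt

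Genes of cholesterol synthesis had most of their 24 h peaks around ZT0, and their summed level was lowest at ZT12. Of 25 tested genes of cholesterol synthesis and uptake, 8 were rhythmic (32.0%, against 35.9% of all tested genes), 7 in the ZT0 window, and all 25 changed over the day, 23 of them with a 12 h component. Of all tested genes, 67.0% changed over the day and 28.4% had a 12 h component. The median fold was 2.26. Hmgcs1, an early enzyme of the pathway, read 948, 668 and 826 CPM at ZT0, 576, 554 and 514 at ZT4, 557, 309.9 and 416 at ZT8, 112, 67.6 and 93.4 at ZT12, 265, 218 and 312 at ZT16, and 719.6, 802 and 853 at ZT20. The 3 ZT12 livers were the lowest of the 18 and the ZT0 and ZT20 livers the highest, with a peak at 0.108 ± 0.542 h and a fold of 6.87 (adjusted p = 0.000531). Sc5d, which makes a late sterol intermediate, held 169 to 205 CPM at ZT12 and at least 475 in all 15 other livers (adjusted p = 0.0179). Insig2, which holds the sterol sensor in the endoplasmic reticulum, had its low at ZT8 instead, 64.2 ± 6.89 CPM, against 333 ± 21.9 at ZT20 (peak 21.3 ± 0.675 h, adjusted p = 0.00630). Summed over the list, levels were 3299 ± 526 CPM at ZT12 and between 5191 and 7852 at the other times. The same 3 ZT12 livers had the lowest sums of Kupffer cell markers, 47.4, 78.3 and 56.6 CPM, and the highest of hepatocyte markers, and their part in the result was not tested. Without ZT12 replicate 3, 3 of the 25 were rhythmic, against 3601 over all genes tested. With a cosine in edgeR 15 were, against 6701 of all 12014.

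Bile acid genes peaked at several times. Of 18 tested, 8 were rhythmic (44.4%, against 35.9% of all tested genes), 3 around ZT0 and 2 around ZT20, with a median fold of 1.54. Cyp8b1, the enzyme that sets the share of cholic acid, read 378, 599 and 875 CPM at ZT0, 68.4, 50.5 and 217 at ZT4, 80.1, 23.1 and 79.4 at ZT8, 69.5, 143 and 78.4 at ZT12, 305, 236 and 197 at ZT16, and 571, 424 and 550.2 at ZT20. All ZT0 and ZT20 livers lay above all others, and ZT4 replicate 3 stood above the other livers of ZT4. The peak was at 20.8 ± 0.513 h with a fold of 12.2 (adjusted p = 0.00821). Hsd3b7, a shared early enzyme, ran from 121 ± 5.68 CPM at ZT12 to 708 ± 44.5 at ZT0, with a peak at 23.1 ± 0.232 h (adjusted p = 3.00e-05). Abcc2, which exports conjugates into bile, peaked at 7.52 ± 0.467 h instead, with 1314 ± 231 CPM at ZT8 and 565 ± 28.3 at ZT16 (adjusted p = 0.0138). Cyp7a1, the rate-limiting enzyme, named after its values were seen, had its highest mean at ZT16, 442 ± 98.1 CPM, and its lowest at ZT12, 116 ± 58.7. It changed over the day (adjusted p = 0.00197) but was not called for 24 h (adjusted p = 0.135).

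Genes of large amplitude are named for each peak window, among those with a given name, a mean of at least 10 CPM and no overlap between their highest and lowest times. That lack of overlap was required by the rule, and it held in 10504 of the 12014 tested genes (87.4%). In the ZT0 window 4 such genes are Nlrp12, Aqp8, Car3 and Hmgcs1. Aqp8, a water channel of the hepatocyte, read 252, 164 and 282 CPM at ZT0, 136, 130.2 and 144 at ZT4, 130.2, 94.05 and 102 at ZT8, 16.99, 11.03 and 19.5 at ZT12, 140.1, 174 and 153 at ZT16, and 329.7, 392 and 366 at ZT20. The 3 ZT20 livers were the highest and the 3 ZT12 livers the lowest (peak 22.7 ± 0.729 h, adjusted p = 0.00266). Car3, a carbonic anhydrase abundant in liver and fat, went from 309 ± 87.8 CPM at ZT12 to 2744 ± 352 at ZT20 (peak 22.5 ± 0.533 h, adjusted p = 0.0179). Nlrp12, an NLR family protein, had 24.7 to 41.3 CPM in the 6 livers of ZT0 and ZT20. Its ZT12 livers ranged from 0 to 28.5, and its call (adjusted p = 0.0290) held in 9 of 18 fits that left out 1 liver, with up to 0.0873, and was not reached by a cosine in edgeR (0.156).

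Genes of fatty acid oxidation and ketone synthesis had scattered peaks. Of 31 tested, 7 were rhythmic (22.6% against 35.9%), 4 of them in the ZT4 window, with a median fold of 1.55. Over the day 26 changed, against 67.0% of all tested genes. Bdh1, which interconverts the ketone bodies, held 179.5 ± 45.7 CPM at ZT8 and 87.5 ± 8.14 at ZT16 (peak 3.89 ± 0.684 h, adjusted p = 0.00266). Eci2, an enoyl-CoA isomerase, peaked later, at 9.33 ± 0.514 h, with 282 to 318 CPM in the ZT12 livers and at most 225 elsewhere (adjusted p = 0.00191). Cpt2, the inner-membrane carnitine palmitoyltransferase, peaked on the other side of the day, at 17.4 ± 0.502 h, with 219 ± 16.9 CPM at ZT16 (adjusted p = 0.00191). Cpt1a, the gatekeeper of the pathway, and Angptl4, an inhibitor of lipoprotein lipase, were named after their values were seen, and both had their highest mean at ZT12 without a 24 h call. Cpt1a stood at 648 ± 134 CPM at ZT12 and 152 ± 7.096 at ZT16 (adjusted p = 0.135 for 24 h, 1.47e-07 for any change). Angptl4 stood at 256 ± 18.9 CPM at ZT12 and at most 62.4 on average elsewhere (adjusted p = 0.0581 for 24 h, 8.28e-08 for any change).

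In the ZT4 window 4 such genes are Arrdc3, Depp1, Fabp5 and Nr1d1. Arrdc3, an arrestin-domain protein, read 164, 378 and 148 CPM at ZT0, 337, 644 and 376 at ZT4, 332, 96.8 and 348 at ZT8, 63.8, 18.2 and 28.1 at ZT12, 26.5, 32.8 and 36.7 at ZT16, and 48.1, 52.98 and 47.7 at ZT20. The 9 livers of ZT12, ZT16 and ZT20 all lay below the 9 of the light phase from ZT0 to ZT8 (peak 3.71 ± 0.421 h, fold 17.8, adjusted p = 0.00104). Depp1, a gene that responds to FoxO factors, had 0.626 to 5.25 CPM at ZT16 and at least 26.8 in the 15 other livers. Its call (adjusted p = 0.0179, up to 0.055 without 1 liver) was not reached by a cosine in edgeR (0.0515) and held in 15 of 18 fits that left out 1 liver. Fabp5, a fatty acid binding protein, averaged 40.4 ± 16.97 CPM at ZT8 and 4.05 ± 0.512 at ZT12, with a peak at 4.36 ± 0.664 h (adjusted p = 0.0229, up to 0.0529 without 1 liver).

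Autophagy genes peaked most often around ZT8. Of 45 tested, 23 were rhythmic (51.1%, against 35.9% of all tested genes), 10 of them in the ZT8 window (9 with library totals), and the median fold was 1.35 against 1.45 over all tested genes. Bnip3, a receptor for mitophagy, read 155, 150.3 and 151 CPM at ZT0, 207, 240.0 and 196 at ZT4, 381, 355 and 312 at ZT8, 577, 492 and 565 at ZT12, 304, 301 and 255 at ZT16, and 145, 147 and 119.6 at ZT20. The 3 ZT12 livers lay highest, the ZT8 livers next, and the ZT20 livers lowest (peak 10.9 ± 0.292 h, adjusted p = 0.00142). Wipi1, which acts at the forming autophagosome, averaged 17.6 ± 2.098 CPM at ZT8 and 5.21 ± 1.57 at ZT16 (peak 4.19 ± 0.656 h, adjusted p = 0.00821). Gabarapl1, an autophagosome coat protein, showed the same low, 139 ± 21.4 CPM at ZT16 against 423 ± 51.9 at ZT0 (adjusted p = 0.0290). With TMM the summed list was lowest at ZT16, 4751 ± 109.5 CPM, and highest at ZT12, 5986 ± 343. The TMM factors of the ZT12 livers were 0.8986, 0.8795 and 0.881, against at least 0.9698 in the others. Low factors raise CPM above what library totals would give, and the sum was not made with library totals. The ZT12 livers also had the highest hepatocyte and the lowest Kupffer marker sums, and their part was not tested. Bnip3, Wipi1 and Gabarapl1, the members with the largest amplitudes, peaked outside the ZT8 window. E-boxes were present in the promoters of 9 of the 36 autophagy genes with an entry (25%, against 10.1% of tested genes and 7.24% of all promoters).

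The 24 h peaks called among genes of xenobiotic metabolism lay mostly around ZT8 and ZT12. Of 30 tested, 12 were rhythmic (40.0%, against 35.9% of all tested genes), 6 around ZT8 (5 with library totals) and 5 around ZT12, with a median fold of 1.82. Alas1, the first enzyme of heme synthesis, read 82.5, 64.01 and 29.9 CPM at ZT0, 287, 185 and 112 at ZT4, 501, 589 and 799.8 at ZT8, 352, 448 and 532 at ZT12, 200.3, 218 and 210.2 at ZT16, and 224, 117 and 59.2 at ZT20. No ZT8 liver lay below 500.9 CPM and the ZT0 livers held at most 82.5 (peak 10.4 ± 0.525 h, fold 8.9, adjusted p = 0.0106). Por, which feeds electrons to the cytochromes P450, held 1065 to 1203 CPM at ZT12 and at most 733 at other times (peak 8.93 ± 0.522 h, adjusted p = 0.00630). Cyp2a5 ran from 487 ± 93.2 CPM at ZT0 to 3096 ± 1187 at ZT8 (adjusted p = 0.00476), and reads of the Cyp2a genes are hard to assign because their sequences are close.

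Glycogen genes were rhythmic in 10 of 12 (83.3% against 35.9%), with a median fold of 1.87 and peaks from the ZT4 to the ZT20 window. Gys2, the liver glycogen synthase, read 91.7, 92.8 and 87.8 CPM at ZT0, 143, 165 and 189 at ZT4, 457, 278 and 317 at ZT8, 254, 475 and 383 at ZT12, 152, 166 and 174 at ZT16, and 111, 114 and 127 at ZT20. The livers of ZT8 and ZT12 lay above all others (peak 10.3 ± 0.347 h, adjusted p = 0.00104). Ppp1r3b, which brings a phosphatase to glycogen, read 147, 111 and 136 CPM at ZT0, 53.6, 47.6 and 62.3 at ZT4, 69.4, 72.4 and 37.8 at ZT8, 286, 262 and 309 at ZT12, 402, 446 and 375 at ZT16, and 303, 283 and 293 at ZT20. Its low livers were those of ZT4 and ZT8 and its high ones those of ZT16 (peak 16.9 ± 0.289 h, fold 9.02, adjusted p = 0.000129). Ppp1r3c, a second such subunit, came last, with 225 ± 43.9 CPM at ZT20 and 28.3 ± 8.74 at ZT8 (peak 20.03 ± 0.436 h, adjusted p = 7.38e-05). Of 14 genes of glycolysis and glucose uptake, 4 were rhythmic (28.6%, against 35.9% of all tested genes), with a median fold of 1.63. Slc2a2, the glucose transporter GLUT2, ran from 324 ± 34.6 CPM at ZT20 to 708 ± 112 at ZT8 (adjusted p = 0.000129). Pklr, the liver pyruvate kinase, held 309 ± 59.5 CPM at ZT16 and 141 ± 17.4 at ZT4 (adjusted p = 0.0367). Gpi1, phosphoglucose isomerase, peaked at 12.4 ± 0.715 h (adjusted p = 0.00266).

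In the ZT8 window 4 such genes are Rgs16, Dbp, Lpin1 and Cux2. Rgs16, a brake on G-protein signalling, read 4.29, 20.04 and 6.65 CPM at ZT0, 90.7, 254 and 63.8 at ZT4, 520.2, 99.4 and 284 at ZT8, 83.7, 154 and 184 at ZT12, 4.12, 6.17 and 2.45 at ZT16, and 1.19, 1.95 and 1.797 at ZT20. All 9 livers of ZT4, ZT8 and ZT12 lay above all 9 others, although the ZT8 livers themselves spread from 99.4 to 520.2 CPM (peak 7.77 ± 0.302 h, fold 209, adjusted p = 0.000129). Lpin1, a phosphatidate phosphatase and transcriptional partner, read 33.99, 17.1 and 38.1 CPM at ZT0, 79.3, 20.6 and 95.9 at ZT4, 143, 285 and 354 at ZT8, 457, 605 and 700.5 at ZT12, 12.9, 77.8 and 5.52 at ZT16, and 57.4, 6.87 and 13.8 at ZT20. Its 3 ZT12 livers were the highest of the 18, and its call held in 6 of 18 fits that left out 1 liver (adjusted p = 0.0367, up to 0.0856). Cux2, a homeobox factor, averaged 46.4 ± 27.5 CPM at ZT8 and 2.51 ± 2.99 at ZT20 (peak 8.22 ± 0.691 h, adjusted p = 0.00356).

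Known targets of the glucocorticoid receptor were high at ZT12, when food was given. The authors describe livers of ZT12 as taken at the fast's end, when glucocorticoids peak. All 20 tested targets changed over the day, against 67.0% of all tested genes. A 24 h rhythm was called in 9 (45.0% against 35.9%), 5 in the ZT12 window and 3 around ZT16. A 12 h component was called in 15, against 28.4% of all tested genes. The median fold was 5.45 against 1.45 over all tested genes. With a cosine in edgeR 16 were called, against 6701 of all 12014. Summed over the list, of which Pck1 is the most abundant member, levels were 21000 ± 2011 CPM at ZT12 and 4095 to 7523 at the other times. Cdkn1a, which encodes the cell cycle inhibitor p21, read 2.42, 6.59 and 2.37 CPM at ZT0, 1.2, 1.27 and 1.03 at ZT4, 0.7699, 1.17 and 0.891 at ZT8, 37.5, 19.5 and 26.9 at ZT12, 27.3, 27.9 and 19.7 at ZT16, and 17.02, 7.45 and 13.7 at ZT20. The 6 livers of ZT12 and ZT16 lay above all others (peak 16.2 ± 0.447 h, fold 32.7, adjusted p = 0.00356). Ddit4, a brake on mTORC1, read 3.64, 4.76 and 6.82 CPM at ZT0, 5.05, 3.94 and 2.01 at ZT4, 4.01, 7.44 and 3.56 at ZT8, 30.8, 83.7 and 59.3 at ZT12, 19.4, 12.1 and 11.7 at ZT16, and 8.57, 5.73 and 11.2 at ZT20. Its 3 ZT12 livers stood above all 15 others (peak 14.1 ± 0.756 h, adjusted p = 0.0138). Fkbp5 and Tsc22d3, classical targets named after their values were seen, were both highest at ZT12. Fkbp5 went from 36.8 ± 10.04 CPM at ZT0 to 339.6 ± 34.99 at ZT12 (peak 11.4 ± 0.496 h, adjusted p = 0.000129) and Tsc22d3 from 43.7 ± 4.78 to 234 ± 23.99 (peak 14.6 ± 0.386 h, adjusted p = 0.00266).

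Igfbp1, a hormone-responsive binding protein for insulin-like growth factors, changed over the day without a 24 h call. It read 67.8, 44.5 and 31.1 CPM at ZT0, 30.7, 35.2 and 35 at ZT4, 20.2, 41.4 and 23.1 at ZT8, 166, 609 and 257 at ZT12, 11.5, 3.19 and 3.36 at ZT16, and 31.6, 26.6 and 26.1 at ZT20. Its 3 ZT12 livers lay above the 15 others and its 3 ZT16 livers below them, and it passed the test for any change (adjusted p = 1.95e-06) but not the rank test (adjusted p = 1). The receptor gene itself, Nr3c1, swung little. Its means ran from 75.9 ± 6.24 CPM at ZT0 to 99.1 ± 11.7 at ZT8 and 98.7 ± 2.62 at ZT12, with a fold of 1.25 and a peak at 10.9 ± 1.06 h (adjusted p = 0.0290). The letters ACANNNTGT of a receptor element, the same on both strands, were in 6.9% of all promoters and in those of 3 of 18 targets with an entry.

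The summed level of gluconeogenesis genes was highest at ZT12. Pck1, G6pc, Tat and Sds are in this list and among the receptor targets. Of 18 tested, 9 were rhythmic (50% against 35.9%), 6 of them in the ZT12 window, and the median fold was 1.86. Over the day 17 changed, against 67.0% of all tested genes. Slc37a4, the glucose-6-phosphate transporter, read 79.1, 104 and 93.5 CPM at ZT0, 142, 171 and 131 at ZT4, 287, 270.3 and 236 at ZT8, 344, 324 and 361 at ZT12, 279, 266 and 275 at ZT16, and 103, 108 and 130.4 at ZT20. Its ZT12 livers were the highest and its ZT0 and ZT20 livers the lowest (peak 11.6 ± 0.225 h, adjusted p = 5.09e-05). Foxo1, the factor that drives this program in fasting, read 30.4, 32.7 and 34.2 CPM at ZT0, 25.2, 29 and 30.2 at ZT4, 46.3, 41.7 and 47.5 at ZT8, 103, 115 and 119 at ZT12, 31.7, 39.6 and 33.8 at ZT16, and 42.6, 37.97 and 32.8 at ZT20. The 3 ZT12 livers held 103 to 119 CPM and no other liver passed 47.5 (adjusted p = 0.0179). Pck1 and G6pc, the enzymes at the start and the end of the pathway, were named after their values were seen. Pck1 stood at 1056 ± 402 CPM at ZT0, 7243 ± 294 at ZT12 and 466 ± 208 at ZT16, with an adjusted p of 9.81e-06 for any change and 0.135 for 24 h. G6pc stood at 31.2 ± 18.3 CPM at ZT8 and 1048 ± 546 at ZT12, with an adjusted p of 0.000657 for any change and 0.283 for 24 h. The summed list reached 26430 ± 859 CPM at ZT12 against at most 12370 at other times. It counts Pck1 and Tat, also part of the receptor target sum, which averaged 7243 and 6410 CPM at ZT12. Without ZT12 replicate 3, 3 of 18 were rhythmic, against 3601 over all genes tested. With a cosine in edgeR 14 were, against 6701 of all 12014.

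Genes of amino acid breakdown and the urea cycle, led by Cps1, also had their highest sum at ZT12. Tat, Gpt, Gpt2, Sds and Got1 are in this list and in that of gluconeogenesis, and Tat, Sds and Tdo2 are also receptor targets. Of 26 tested, 12 were rhythmic (46.2%, against 35.9% of all tested genes), 6 in the ZT12 window, with a median fold of 1.55. With a cosine in edgeR 20 were called, against 6701 of all 12014. Tat, tyrosine aminotransferase, read 902, 1010 and 661 CPM at ZT0, 991, 845 and 1500 at ZT4, 1108, 2180 and 1161 at ZT8, 5588, 7164 and 6479 at ZT12, 2454, 2021 and 1656 at ZT16, and 1643, 1368 and 1386 at ZT20. Each ZT12 liver held more than any liver of another time. The peak was at 12.9 ± 0.664 h with a fold of 4.91 (adjusted p = 0.00266). Asl, which releases arginine and fumarate in the urea cycle, ran from 500.2 ± 62.7 CPM at ZT4 to 1303 ± 142 at ZT12 (adjusted p = 0.00630). Slc25a15, the mitochondrial ornithine carrier, peaked later, at 16.5 ± 0.452 h, with 579.7 ± 76.7 CPM at ZT16 (adjusted p = 0.00191). The list summed to 39240 ± 2358 CPM at ZT12 and to 22600 to 27990 at other times.

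Sums of cell markers moved at ZT12 too. The 8 Kupffer and myeloid markers, led by Clec4f, summed to 182, 152 and 198 CPM at ZT0, 283, 144 and 137 at ZT4, 149, 349 and 204 at ZT8, 47.4, 78.3 and 56.6 at ZT12, 115, 152 and 144 at ZT16, and 163, 116 and 103 at ZT20. The 3 ZT12 livers were the lowest of the 18, and ZT8 replicate 2 was the highest. Of the 8, 0 were rhythmic by JTK_CYCLE, 0 at an unadjusted p under 0.05, and 3 by a cosine in edgeR, and 6 changed over the day. Over all tested genes 35.9% were rhythmic by JTK_CYCLE, 47.1% had its unadjusted p under 0.05, and 67.0% changed over the day. The cosine called 6701 of 12014. The sum of the 7 hepatocyte markers, led by Alb, was highest in the ZT12 livers. Of the 7, 6 changed over the day, against 67.0% of all tested genes. The 4 rhythmic ones were Alb, Hnf4a, Asgr1 and Tat (57.1% against 35.9%). Tat is also counted in the lists of receptor targets, gluconeogenesis and amino acid breakdown. Cps1, the most abundant gene of the amino acid list, is another of the 7. Hnf4a, a master factor of hepatocytes, ran from 511 ± 34.1 CPM at ZT0 to 936 ± 45.9 at ZT12 (adjusted p = 0.00630). The ZT12 highs of receptor targets, gluconeogenesis, amino acid breakdown and, with TMM, autophagy fall in these same livers. So do the ZT12 lows of cholesterol synthesis and lipogenesis. The part of the marker shift in them was not tested.

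Insulin and FoxO signalling genes gave 16 rhythmic of 32 (50% against 35.9%), with a median fold of 1.61, 5 of them in the ZT12 window with TMM and 3 with library totals. Eif4ebp3, a repressor of translation, read 10.2, 21.04 and 13.1 CPM at ZT0, 15.8, 16.2 and 13.6 at ZT4, 34.5, 66.7 and 38.4 at ZT8, 115, 158 and 134 at ZT12, 48.6, 57.98 and 75.2 at ZT16, and 24.7, 24 and 21.8 at ZT20. The 3 ZT12 livers held 115 to 158 CPM and no other liver passed 75.2 (peak 12.7 ± 0.324 h, fold 9.06, adjusted p = 0.000129). Klf15, a regulator of amino acid use in fasting, averaged 106 ± 22.3 CPM at ZT12 and 34.9 ± 6.68 at ZT0 (adjusted p = 0.0106). Without ZT12 replicate 3 the count was 10 of 32, and over all genes tested it was 3601 in place of 4308.

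The 24 h peaks called among ribosome assembly genes lay mostly around ZT12 and ZT16. Of 47 tested, 20 were rhythmic (42.6%, against 35.9% of all tested genes), 3 around ZT8, 11 around ZT12 (9 with library totals) and 6 around ZT16. Over the day 42 changed, against 67.0% of all tested genes, and the median fold was 1.52. Rrp12, which helps export pre-ribosomes, read 3.31, 5.02 and 4.34 CPM at ZT0, 6.35, 5.96 and 4.14 at ZT4, 3.905, 5.47 and 4.19 at ZT8, 9.18, 9.94 and 6.01 at ZT12, 16.9, 14.4 and 17.1 at ZT16, and 5.06, 5.56 and 8.03 at ZT20. The 3 ZT16 livers were the highest of the 18 (peak 15.2 ± 0.791 h, adjusted p = 0.0290). Polr1a, the largest subunit of RNA polymerase I, held 17.2 ± 3.23 CPM at ZT12 and 17.1 ± 3.88 at ZT16 against 7.49 ± 1.898 at ZT0 (adjusted p = 0.0179). Tsr1, a factor for the small subunit, went from 14.6 ± 0.344 CPM at ZT8 to 39.9 ± 7.65 at ZT16 (adjusted p = 0.00356).

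**Figure D3:**
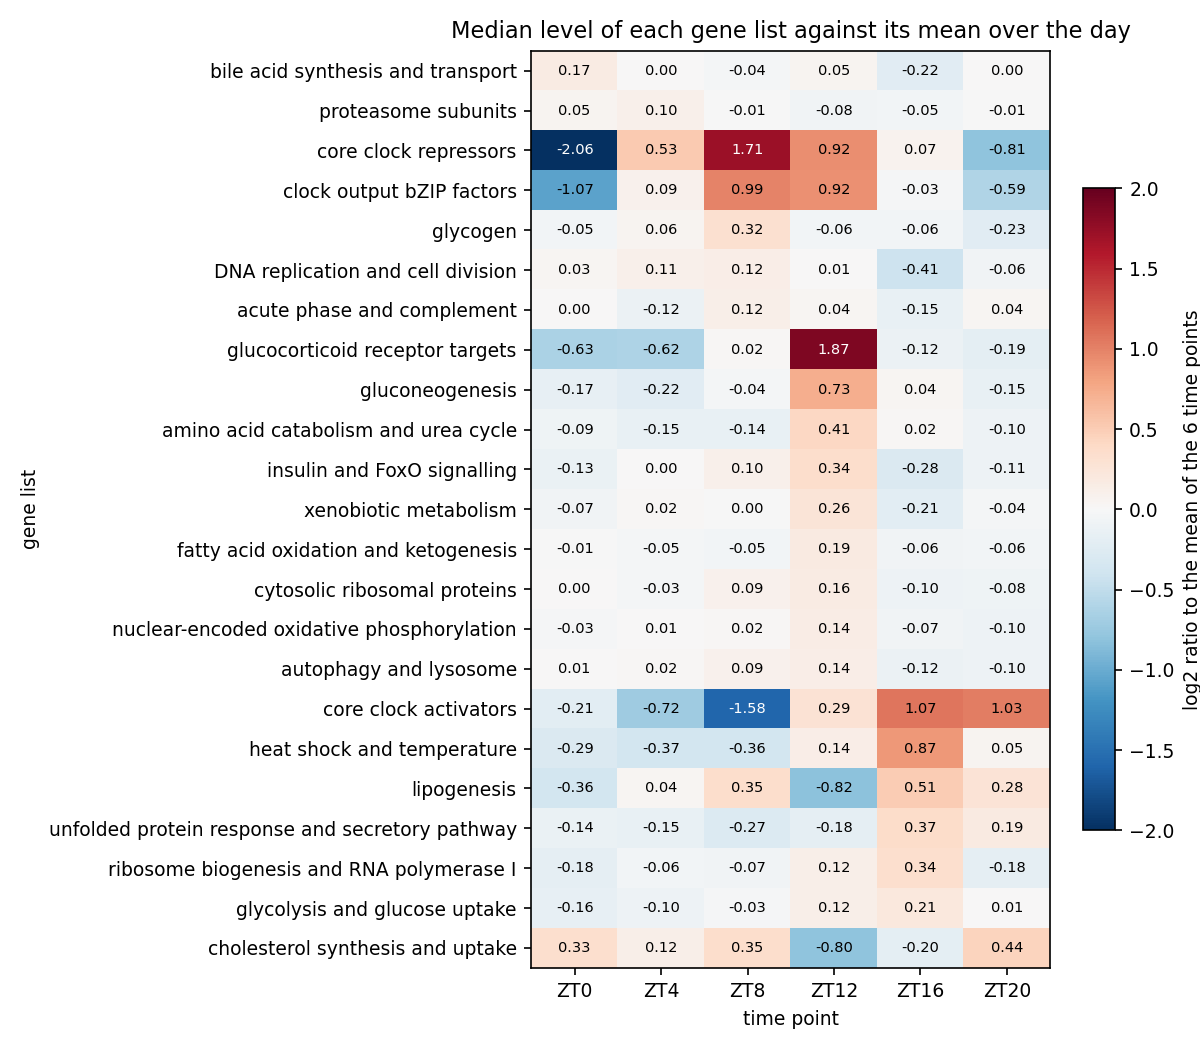
Median log2 ratio to the daily mean over the tested members of 23 gene lists (lines of the map) at each time of day (x axis, ZT in hours). Receptor targets and gluconeogenesis are highest at ZT12 (1.87 and 0.73), cholesterol synthesis is lowest there (−0.80), and the heat shock and temperature list is highest at ZT16 (0.87).

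Ciart, Usp2 and Mfsd2a were among the genes of large amplitude in the ZT12 window. Usp2, a ubiquitin-specific peptidase under clock control, held 86.1 to 119 CPM at ZT8 and ZT12 and 1.36 to 1.91 at ZT0 (peak 11.1 ± 0.411 h, adjusted p = 0.00142). Mfsd2a, a carrier of lysophosphatidylcholine, read 17.6, 9.21 and 4.85 CPM at ZT0, 33.3, 25.6 and 38.1 at ZT4, 111, 158 and 69.04 at ZT8, 316, 360.0 and 429 at ZT12, 163, 112 and 71.1 at ZT16, and 52.3, 30.1 and 25.3 at ZT20. Its 3 ZT12 livers stood above all others, with the ZT0 livers lowest (peak 12.1 ± 0.338 h, adjusted p = 3.00e-05).

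After the meal, at ZT16, most genes of the heat shock and temperature list had their 24 h peak. The list also holds the cold-inducible genes Cirbp and Rbm3, and both are in its counts. Of 23 tested, 21 were rhythmic (91.3% against 35.9%), 15 of them in the ZT16 window (14 with library totals), and the median fold was 2.49 against 1.45. All 23 changed over the day, against 67.0% of all tested genes. Hsp90aa1, the inducible HSP90, read 73.8, 78.1 and 88.1 CPM at ZT0, 72.2, 62.5 and 70.01 at ZT4, 54.7, 48.1 and 58.5 at ZT8, 121, 144 and 133 at ZT12, 744, 616 and 869 at ZT16, and 230.1, 194 and 209.5 at ZT20. The 3 ZT16 livers lay above all 15 others, with the ZT20 livers second (peak 16.8 ± 0.466 h, fold 9.64, adjusted p = 0.00142). Hsph1, the HSP110 co-chaperone, read 3.54, 6.96 and 0 CPM at ZT0, 3.301, 2.605 and 3.05 at ZT4, 5.77, 1.75 and 3.88 at ZT8, 13.2, 23.4 and 12.2 at ZT12, 37.8, 23.8 and 58.05 at ZT16, and 5.95, 6.3 and 8.82 at ZT20. Its ZT16 livers lay above every other liver (peak 14.7 ± 0.8596 h, adjusted p = 0.00104). Hspb1, a small heat shock protein, held 30.3 to 61.8 CPM at ZT16, 16.1 to 23.04 at ZT20 and at most 10.5 in the other 12 livers (adjusted p = 0.0106). Summed over the list, levels were 7864 ± 1953 CPM at ZT16 and 2430 to 4102 at other times. Cirbp, an RNA-binding protein named after its values were seen, ran opposite, with 41.03 ± 5.68 CPM at ZT4 and 9.34 ± 2.399 at ZT16 (peak 3.69 ± 0.363 h, adjusted p = 0.000531).

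Promoters of the heat shock and temperature list held the letters GAANNTTC, the core of the heat shock element and the same on both strands, in 8 of 19 with an entry. That is 42.1%, against 7.95% of all promoters, 5.63% of tested genes and 8.64% of rhythmic genes of the ZT16 window. Hsph1, the gene of this list with the largest amplitude, is shown with 2 promoters that hold the element in 2 places each. The capitals mark it, and the sequences are from RefSeq, GRCm38.p6: Hsph1 at chr5:149636287-149636586 on the minus strand, Hspb1 at chr5:135887669-135887968 on the plus strand and Chordc1 at chr9:18292017-18292316 on the plus strand.
Hsph1: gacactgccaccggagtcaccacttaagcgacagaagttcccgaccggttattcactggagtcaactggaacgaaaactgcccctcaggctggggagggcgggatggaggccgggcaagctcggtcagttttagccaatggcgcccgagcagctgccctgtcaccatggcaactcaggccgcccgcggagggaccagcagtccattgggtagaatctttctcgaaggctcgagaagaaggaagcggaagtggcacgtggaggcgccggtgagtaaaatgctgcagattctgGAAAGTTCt
Hspb1: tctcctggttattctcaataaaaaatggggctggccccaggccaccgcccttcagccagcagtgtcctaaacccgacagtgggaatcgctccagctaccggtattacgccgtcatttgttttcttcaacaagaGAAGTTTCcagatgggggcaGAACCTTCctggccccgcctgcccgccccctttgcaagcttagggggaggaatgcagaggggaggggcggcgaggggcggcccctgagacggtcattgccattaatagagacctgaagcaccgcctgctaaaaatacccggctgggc
Chordc1: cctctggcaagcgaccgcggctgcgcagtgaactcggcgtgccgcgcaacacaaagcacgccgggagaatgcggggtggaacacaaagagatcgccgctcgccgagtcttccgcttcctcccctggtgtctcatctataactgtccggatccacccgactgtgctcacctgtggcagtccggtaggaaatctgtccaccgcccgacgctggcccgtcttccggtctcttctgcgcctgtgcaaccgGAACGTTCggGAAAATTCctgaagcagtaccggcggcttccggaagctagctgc

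The 24 h peaks called among genes of the unfolded protein response and the secretory pathway lay mostly around ZT16 and ZT20. Of 33 tested, 19 were rhythmic (57.6% against 35.9%), 7 around ZT16 and 7 around ZT20 (5 and 9 with library totals), with a median fold of 1.87. Creld2, a chaperone of the endoplasmic reticulum, read 7.13, 11.8 and 8.397 CPM at ZT0, 9.65, 7.18 and 9.43 at ZT4, 6.76, 7.81 and 8.96 at ZT8, 15.6, 16.3 and 11.8 at ZT12, 81.98, 39.2 and 105 at ZT16, and 23.2, 12.7 and 20.2 at ZT20. All 3 ZT16 livers lay above all others (peak 16.4 ± 0.674 h, adjusted p = 0.00356). Sdf2l1, part of the same chaperone network, held 28.7 ± 12.8 CPM at ZT16, 20.8 ± 4.31 at ZT20 and 3.26 ± 0.332 at ZT12 (peak 19.5 ± 0.6797 h, adjusted p = 0.0106). Trib3, a pseudokinase of the stress response, ran apart, with 22.2 ± 6.52 CPM at ZT4 and 2.96 ± 0.638 at ZT16 (peak 5.31 ± 0.299 h, adjusted p = 0.000531). Hspa5, the chaperone BiP, named after its values were seen, went from 263 ± 6.51 CPM at ZT8 to 1245 ± 414 at ZT16 (adjusted p = 0.0229). The core CCACG of the ER stress element, or CGTGG on the other strand, was in the promoters of 20 of 28 list members with an entry, against 32.7% of all promoters and 47.0% of tested genes. CCACG overlaps the E-box wherever an E-box follows a C.

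Among genes averaging at least 10 CPM, Cdkn1a, Fech, Hsph1 and Serpina3c had large amplitudes in the ZT16 window. Serpina3c, a serine protease inhibitor, read 5.97, 5.44 and 7.44 CPM at ZT0, 2.95, 3.94 and 4.48 at ZT4, 4.18, 4.25 and 6.03 at ZT8, 81.5, 19.9 and 104 at ZT12, 8.39, 78.9 and 122 at ZT16, and 14.4, 10.1 and 8.42 at ZT20. The ZT12 and ZT16 livers hold the 5 highest values, while ZT16 replicate 1 sat among the low times (peak 14.9 ± 0.722 h, adjusted p = 0.00191), and reads of the Serpina genes are hard to assign. Fech, ferrochelatase, had 0 CPM in 2 of the 3 ZT4 livers and 19.0 in the other, with 53.4 to 60.3 at ZT16 (adjusted p = 0.00266). The call held in 18 of 18 fits that left out 1 liver, and a cosine in edgeR gave 0.119.

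Lipogenesis genes had peaks spread over the day. Of 17 tested, 8 were rhythmic (47.1% against 35.9%), 2 each around ZT0, ZT16 and ZT20, with a median fold of 2.18. All 17 changed over the day, against 67.0% of all tested genes. Acss2, which makes acetyl-CoA from acetate, read 706, 492 and 640.1 CPM at ZT0, 585, 568 and 496 at ZT4, 579, 474 and 521 at ZT8, 166, 129 and 165 at ZT12, 152, 154 and 155 at ZT16, and 548, 674 and 650.5 at ZT20. The 6 livers of ZT12 and ZT16 held at most 166 CPM and the 12 others at least 473 (peak 1.62 ± 0.586 h, adjusted p = 0.0290). Thrsp, a lipogenic factor, peaked at 14.4 ± 0.598 h with 478 ± 154 CPM at ZT16 and 86.3 ± 9.03 at ZT0 (adjusted p = 0.0179). Fasn, fatty acid synthase, named after its values were seen, stood at 56.1 ± 15.7 CPM at ZT12 and 653 ± 184 at ZT16. It changed over the day (adjusted p = 1.75e-06) without a 24 h call (adjusted p = 1). The list summed lowest at ZT12, 8238 ± 1477 CPM, and highest at ZT8, 15030 ± 1019, with Scd1 the most abundant member. The ZT12 livers also had the lowest Kupffer and the highest hepatocyte marker sums, and their part was not tested.

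Elovl3, Arntl, Serpina1e and Nat8f5 had large amplitudes in the ZT20 window, among genes averaging at least 10 CPM. Elovl3, an elongase of very long fatty acids, read 57.7, 33.6 and 108 CPM at ZT0, 2.95, 0 and 29.7 at ZT4, 0 in all 3 livers at ZT8, 0.4796, 36.1 and 2.35 at ZT12, 0, 0 and 2.22 at ZT16, and 182, 166 and 136 at ZT20. All 3 ZT20 livers lay above the 15 others and all 3 ZT8 livers were at 0. ZT20 was at least 1000-fold above ZT8, taking a floor of 3 counts per library. The call (adjusted p = 0.0367) held in 8 of 18 fits that left out 1 liver, with up to 0.108. Serpina1e, an α1-antitrypsin gene, read 649.9, 782 and 2077 CPM at ZT0, 17.5, 13.9 and 514 at ZT4, 26.01, 15.1 and 59.2 at ZT8, 117, 457 and 114 at ZT12, 37.2, 66.7 and 98.7 at ZT16, and 2595, 1429 and 1310 at ZT20. Its ZT20 livers and the ZT0 livers held the 6 highest values, and ZT4 replicate 3 stood above the other 2 livers of its time. The call (adjusted p = 0.0290) held in 11 of 18 such fits, and close copies make its reads hard to assign. Nat8f5, an acetyltransferase family member, held 34.5 to 37.5 CPM at ZT20 and 0.372 to 4.83 from ZT4 to ZT12 (peak 19.6 ± 0.408 h, adjusted p = 0.00104).

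Acute phase and complement genes were rhythmic in 6 of 32 (18.8% against 35.9%), with a median fold of 1.36 against 1.45 over all tested genes. Serpina3k, an abundant secreted inhibitor, held 11530 ± 1408 CPM at ZT20 and 3845 ± 721 at ZT8 (peak 19.4 ± 0.826 h, adjusted p = 0.00630). C6, a complement component, peaked at 20.8 ± 1.099 h (adjusted p = 0.0367). Orm2, an acute phase glycoprotein, read 65.8, 34.96 and 31.8 CPM at ZT0, 144, 153 and 86.05 at ZT4, 63.6, 856 and 75.8 at ZT8, 36.5, 81.1 and 59.5 at ZT12, 46.5, 50.98 and 165 at ZT16, and 12.8, 29.5 and 24.7 at ZT20. ZT8 replicate 2 stood alone at 856 CPM, the liver that also had the highest Kupffer sum, and the part of that liver in the call (adjusted p = 0.0367) was not tested. Without ZT12 replicate 3, 2 of 32 were rhythmic, against 3601 over all genes tested.

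Genes of the ribosome, the respiratory chain and the proteasome had median folds below the 1.45 of all tested genes. Of 73 cytosolic ribosomal protein genes, 14 were rhythmic (19.2%, against 35.9% of all tested genes), 8 in the ZT12 window with TMM and 3 with library totals, and the median fold was 1.19. Rplp1, a stalk protein, had the largest amplitude among the 14, 0.29 ± 0.06, with 212 ± 18.1 CPM at ZT0 and 140.0 ± 22.4 at ZT16 (adjusted p = 0.0179). Of 65 nuclear genes of oxidative phosphorylation, 20 were rhythmic (30.8% against 35.9%), 10 in the ZT12 window with TMM and 6 with library totals, and the median fold was 1.21. Uqcr11, a subunit of complex III, ran from 85.7 ± 11 CPM at ZT16 to 114 ± 2.26 at ZT4 (adjusted p = 0.00821). Cox5a, a subunit of cytochrome oxidase, was highest at ZT12, 164 ± 7.36 CPM, against 114 ± 4.23 at ZT20 (adjusted p = 0.00356). Without ZT12 replicate 3 the counts were 9 of 73 and 12 of 65, against 3601 over all genes tested. Of 33 proteasome genes, 12 were rhythmic (36.4% against 35.9%), with a median fold of 1.21. Psmd14, the deubiquitinase of the lid, led them with 51.8 ± 2.32 CPM at ZT20 and 25.9 ± 1.99 at ZT12 (peak 21.2 ± 0.448 h, adjusted p = 0.00142).

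Of 32 genes of DNA replication and cell division, 14 fell under the count minimum. Of the 18 tested, 10 were rhythmic (55.6% against 35.9%), with a median fold of 2.21. Wee1, a kinase that restrains mitosis and a clock target, read 4.38, 2.35 and 3.27 CPM at ZT0, 14.8, 13.1 and 4.54 at ZT4, 41.4, 32.1 and 30.6 at ZT8, 22.3, 15.5 and 19.99 at ZT12, 11.9, 11.6 and 15.8 at ZT16, and 5.24, 4.93 and 5.504 at ZT20. The ZT8 livers were the highest and the ZT0 livers the lowest (peak 10.3 ± 0.459 h, adjusted p = 0.00630). Ccne1, a cyclin of the G1/S step, held at most 2.88 CPM in any liver and peaked at 8.62 ± 0.445 h (adjusted p = 0.00821).

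Many profiles were not cosine shaped. A 12 h component was called in 3414 genes, 1370 of them also rhythmic at 24 h and 2044 not, and in 1136 the 12 h amplitude exceeded the 24 h one. Of the 8049 genes that changed over the day, 4252 had ZT12 as their highest or lowest time (52.8%) and 4151 had ZT16 (51.6%), against 20.3 to 31.1% for the 4 other times. Among the 3916 genes that changed without a 24 h call, 1046 had their highest and lowest times at ZT12 and ZT16, 545 of them high at ZT12 and 501 high at ZT16. With 6 times and 1 cycle, a 12 h component cannot be told apart from a single sharp step around the meal. A1bg, a secreted glycoprotein, read 5.503, 10.1 and 0.6199 CPM at ZT0, 4.75, 6.13 and 3.97 at ZT4, 6.599, 12.7 and 13.4 at ZT8, 1.302, 0.204 and 1.97 at ZT12, 52.6, 60.5 and 80.8 at ZT16, and 7.86, 11.1 and 16.1 at ZT20. Its 3 ZT16 livers stood above all 15 others (12 h adjusted p = 0.00162, 24 h 0.468). Cyp2a4, a close copy of Cyp2a5, averaged 106 ± 97.1 CPM at ZT4 and 1.302 ± 0.354 at ZT20 (12 h adjusted p = 0.00783), and the 3 ZT4 livers spread from 9.89 to 204 CPM. Nrbp2 and Rps3a2 also met the rule for this group, but both switched between 0 and high values among livers of the same time: Nrbp2 read 50.2, 0 and 46.3 CPM at ZT12, and Rps3a2 read 0, 0.105 and 65.2 at ZT0. Such switching was seen in 154 of the 12014 tested genes, of which 8 were rhythmic.

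Between neighbouring times, the step after the meal changed the most genes. By edgeR, 570 genes changed from ZT0 to ZT4 (4.74% of those tested), 484 from ZT4 to ZT8 (4.03%), 3872 from ZT8 to ZT12 (32.2%), 5465 from ZT12 to ZT16 (45.5%), 2705 from ZT16 to ZT20 (22.5%) and 466 from ZT20 to ZT0 (3.88%). From ZT8 to ZT12, 2038 genes rose and 1834 fell, and from ZT12 to ZT16, 2681 rose and 2784 fell. These directions are relative to TMM. With library totals the median gene shifted by −0.22 on the log2 scale from ZT8 to ZT12 and by 0.18 from ZT12 to ZT16. On that scale 44.2% of the called genes rose from ZT4 to ZT8 in place of 52.3%, 19.1% rose from ZT8 to ZT12 in place of 52.6%, 71.7% rose from ZT12 to ZT16 in place of 49.1%, and 62.7% rose from ZT20 to ZT0 in place of 45.1%. The small steps depended on single livers. From ZT0 to ZT4, 212 genes were called without ZT0 replicate 3, 290 without ZT4 replicate 1 and 264 without ZT4 replicate 2. From ZT4 to ZT8, 287 were called without ZT4 replicate 1, 284 without ZT4 replicate 2, 307 without ZT4 replicate 3 and 239 without ZT8 replicate 1. From ZT16 to ZT20, 1739 were called without ZT16 replicate 3. From ZT20 to ZT0, 202, 265 and 231 were called without ZT0 replicates 1, 2 and 3, and 167, 256 and 225 without ZT20 replicates 1, 2 and 3.

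**Figure D4:**
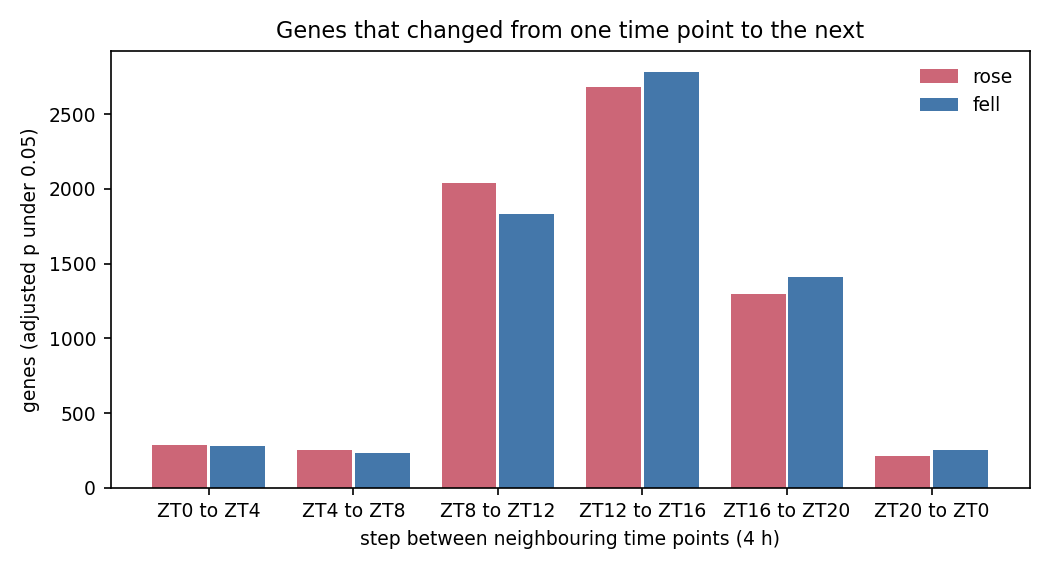
Genes that rose (red bars) and fell (blue bars) between neighbouring times of day by edgeR at adjusted p under 0.05 with TMM scaling (x axis, step, and y axis, genes). The step from ZT12 to ZT16 is the largest, with 2681 genes up and 2784 down, and with library totals 71.7% of the called genes rise in it.

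Named genes show what the steps held. From ZT0 to ZT4, Dbp went from 0.35 ± 0.339 to 21.5 ± 5.23 CPM (adjusted p = 0.000105) and Nfil3 fell from 49.5 ± 4.81 to 7.55 ± 3.59 CPM (adjusted p = 1.14e-05). The 3 livers on each side were apart, as the rule for steps required, which held for 24.9% of tested genes in this step. From ZT4 to ZT8, Usp2 rose from 22.4 ± 10.3 to 111 ± 7.02 CPM (adjusted p = 0.000114) and Tubb2a, a β-tubulin, fell from 92.6 ± 13.4 to 21.2 ± 4.78 CPM (adjusted p = 0.000776). Mt1, a metallothionein, also rose in that step (adjusted p = 0.0438), with 1 of its 3 ZT8 livers at 114 CPM and the others at 14.7 and 19.97. From ZT8 to ZT12, Gvin1, an interferon-induced GTPase, fell from 18.9 ± 7.05 to 1.35 ± 2.33 CPM (adjusted p = 0.0444). Bcar1, an adaptor at focal adhesions, read 4.41 to 19.3 CPM at ZT8, 0 in all 3 ZT12 livers and 1.49 to 17.6 at ZT16, and at ZT20 it switched between livers, with 18.7, 12.9 and 0. Both of its steps were called (adjusted p = 0.00829 and 0.00863), and its ZT4 mean was at least 93.4-fold above ZT12. Rpl3-ps1, a copy of the ribosomal gene Rpl3, read 136 to 285 CPM in the 3 ZT12 livers and 0 to 0.262 at ZT0, ZT4, ZT8 and ZT20, and ZT12 was at least 1210-fold above ZT0. At ZT16 it switched between livers, with 126 CPM in 1 and 0 in the other 2. Rpl3 itself, named after its values were seen, was lowest at ZT12, 145 ± 59.6 CPM, against 313 ± 21.9 at ZT8. Reads of the copy and of its parent are hard to tell apart.

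From ZT12 to ZT16, Igfbp1 fell from 344 ± 234 to 6.01 ± 4.74 CPM (adjusted p = 2.24e-06) and Rgs16 fell from 140.0 ± 51.3 to 4.25 ± 1.87 CPM (adjusted p = 9.14e-05). From ZT16 to ZT20, Hsd3b5, a male-biased steroid enzyme of mouse liver, rose from 0.187 ± 0.109 to 57.9 ± 13.8 CPM (adjusted p = 0.00698). In that step Asns, asparagine synthetase, fell from 62.5 ± 40.3 to 2.4 ± 1.19 CPM (adjusted p = 0.00399). From ZT20 to ZT0, Nr1d1 rose from 1.26 ± 0.418 to 47.8 ± 14.8 CPM (adjusted p = 6.41e-07) and Per2 fell from 20.3 ± 3.74 to 3.53 ± 1.19 CPM (adjusted p = 7.02e-05). Egr1, an immediate early gene, also rose (adjusted p = 0.0399), with ZT0 livers at 5.50, 86.0 and 15.3 CPM. In these 18 livers the step between ZT20 and ZT0 closes the cycle between different mice.

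Markers of the remaining cell types follow. Of 7 stellate and fibroblast markers, 3 were rhythmic (42.9%, against 35.9% of all tested genes), all in the ZT0 window, and Lrat, Reln, Des and Dcn were not called. The sum of the list, led by Dcn, was highest at ZT20, 295 ± 20.3 CPM, with 278 ± 35.2 at ZT0. Col3a1, a fibrillar collagen, read 18.6, 46.1 and 21.02 CPM at ZT0, 19.2, 10.8 and 15.98 at ZT4, 8.91, 12.8 and 14.6 at ZT8, 6.44, 7.21 and 3.93 at ZT12, 9.68, 8.88 and 9.68 at ZT16, and 15, 14.4 and 18.3 at ZT20. The ZT12 livers lay below all others, and the highest value was at ZT0 (peak 0.299 ± 0.614 h, adjusted p = 0.000228). Col1a1, its partner, peaked at 0.0269 ± 0.771 h (adjusted p = 0.00104) and Pdgfrb, a receptor of stellate cells, at 1.07 ± 0.676 h (adjusted p = 0.0138). Of 6 endothelial markers 2 were rhythmic (33.3% against 35.9%), Pecam1 (adjusted p = 0.0290) and Kdr (adjusted p = 0.0367), with folds of 1.38 and 1.35. Of 4 cholangiocyte markers 2 were rhythmic (50% against 35.9%), Sox9 and Spp1, and 1 was without ZT12 replicate 3. The list summed to 25.8, 30.4 and 28.1 CPM at ZT12, the lowest of the day, with Epcam at 0 in all 18 livers. Of 5 erythrocyte markers, led by Hbb-bs, 0 were rhythmic by JTK_CYCLE, 1 at an unadjusted p under 0.05 and 1 by a cosine in edgeR, and their sums varied between livers of the same time, with 305, 1210 and 397 CPM at ZT0. Of the lymphocyte and neutrophil markers 0 reached the count minimum, though without ZT12 replicate 3 it was reached by 1 lymphocyte marker, which was rhythmic. Of 2 tested adipocyte markers 0 were rhythmic by JTK_CYCLE, 0 at an unadjusted p under 0.05, and 1 by a cosine in edgeR, with Plin1, Lep and Cfd at 0 in all 18. Over all tested genes, 35.9% were rhythmic by JTK_CYCLE and 47.1% had its unadjusted p under 0.05, and the cosine called 6701 of 12014.

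Against the control diet, the question is whether the daily profile itself differs. A test of the difference in the 24 h cosine, by edgeR over both groups, called 3548 of 11895 genes (29.8%). Of the 4282 genes rhythmic on restriction that could be compared, 2202 were called, and in 1919 of those the amplitude was larger on restriction and in 283 smaller. Over the 4282, the median log2 amplitude was 0.398 on restriction and 0.255 on the control diet, and these genes were chosen for their rhythm on restriction. Each diet's libraries form a batch of their own, so the diet and the batch cannot be told apart, and no test of mean level was made. Of the 19 clock genes 16 were called, and 15 of these had an earlier fitted peak on restriction. The exception was Rora, at 12 ± 1.4 h against 4.45 ± 2.1 h (adjusted p = 0.0374), with an amplitude on the control diet of 0.123 ± 0.068. Its call was missed with limma, and that for Clock with DESeq2 and with a replicate block. Nr1d1 peaked at 5.21 h against 7.76 h (adjusted p = 2.5e-05), Dbp at 7.85 h against 10.6 h (adjusted p = 1.87e-06), Per2 at 12.6 h against 15.1 h (adjusted p = 0.000787), and Arntl at 19.6 h against 22.3 h (adjusted p = 0.00305). Bhlhe40 (adjusted p = 0.378), Bhlhe41 (0.126) and Hlf (0.777) were not called.

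Against GR LKO livers on the same diet, the same test called 130 of 12113 genes (1.07%), of which 88 were among the 4298 rhythmic genes compared, 66 with a larger amplitude in the wild type and 22 with a smaller one. The 4298 were chosen for their rhythm in the wild type. At an unadjusted p under 0.05 it was 1541 genes, and DESeq2 called 292. With no filter on low counts 65 were called, and with a replicate block 72. Of the clock genes Npas2 alone was called (adjusted p = 0.0429), with a peak at 21.1 h in the wild type and 22.1 h in GR LKO. That call was lost with limma, with a replicate block and in a fit that left out 1 liver. Nr1d1 peaked at 5.21 h and 5.48 h (adjusted p = 0.72), Dbp at 7.87 h and 8.15 h (adjusted p = 0.858), and a p that misses the threshold does not show that they are alike. The count of 130 depended on single livers. It was 72, 61 and 58 without wild-type ZT12 replicates 1, 2 and 3, and 80, 81 and 82 without wild-type ZT20 replicates 1, 2 and 3. It was 65 and 83 without GR LKO ZT4 replicates 1 and 2, 70 without ZT8 replicate 2, 64 and 63 without ZT12 replicates 2 and 3, and 86 without ZT20 replicate 2 of that genotype. Both comparisons share the 18 restricted wild-type livers, so their lists are not independent of each other.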

How the data were processed

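The authors deposited estimated counts per gene, which their processing notes credit to FastQC, MultiQC and Salmon on mm10, with DESeq2 also named. Counts were rounded, genes averaging at least 10 counts over the 18 livers were tested, and R 4.3.3 was used with edgeR 4.0.16 (TMM, quasi-likelihood F tests), limma 3.58.1 and DESeq2 1.42.0. JTK_CYCLE, with its exact null distribution, ran on DESeq2's variance-stabilised values over 6 phase offsets with p multiplied by 6 and then adjusted over all tested genes. Peaks and amplitudes came from a cosine on log2 CPM with a prior count of 2. Folds against a time at 0 used a floor of 3 counts per library. The tests were checked on simulated data. Named genes were the clock lists, the 4 rhythmic genes of largest amplitude in each peak window (mean of at least 10 CPM, highest and lowest times not overlapping), the 3 rhythmic members of largest amplitude in each other list (the 2 most abundant where there were 0), the 4 largest 12 h amplitudes, the 2 largest rises and 2 largest falls of each step, and Nr3c1. Genes without a given name were passed over, and a few of the genes picked are not reported here. The members and lists were chosen with earlier results of these data known. Alternatives were other tests, scalings and filters, a replicate block, and leaving out livers.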

Additional observations from a re-analysis of the deposited data

Results flagged for a closer look

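The daily profile of 16 clock genes differed between caloric restriction and the control diet in a test of that difference, and the diet and the batch of libraries cannot be told apart. For the genes reported here, the adjusted p was, among the activators, 0.00305 for Arntl, 0.0352 for Clock, 2.41e-07 for Npas2 and 0.0374 for Rora. Among the repressors it was 0.00139 for Per1, 0.000787 for Per2, 0.00142 for Per3, 5.42e-06 for Cry1, 0.013 for Cry2, 2.5e-05 for Nr1d1, 0.00022 for Nr1d2 and 8.1e-05 for Ciart. Among the bZIP factors it was 1.87e-06 for Dbp, 3.21e-05 for Tef and 0.0167 for Nfil3. The call for Clock was missed with DESeq2 (0.0787) and with a replicate block (0.0602), and that for Rora with limma (0.0546). The profile of Npas2 also differed from that of GR LKO livers, with an adjusted p of 0.0429, which was 0.0739 with limma, 0.0657 with a replicate block and up to 0.115 without 1 liver.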

How the results depend on the processing

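With 1 cycle and 4 h sampling, the shape of a profile between the sampled times was beyond reach. The number of rhythmic genes was 6701 with a cosine in edgeR, 7019 in DESeq2 and 6799 in limma, and 1055 to 3789 without 1 liver or 1 replicate number. A replicate block gave 4513. The median fold was 1.53 on VST values and 1.71 to 1.76 without 1 liver. With DESeq2, 882 genes changed from ZT0 to ZT4, 782 from ZT4 to ZT8 and 899 from ZT20 to ZT0. Without 1 liver, the step counts were 212 to 741 from ZT0 to ZT4, 239 to 531 from ZT4 to ZT8, 1739 to 2805 from ZT16 to ZT20 and 167 to 535 from ZT20 to ZT0. From ZT4 to ZT8, 268 were called without both ZT4 replicate 3 and ZT12 replicate 3, an alternative chosen after seeing the data, as was scaling the steps by library totals. The difference from GR LKO was called in 292 genes with DESeq2, 65 with no filter, 72 with a replicate block and 58 to 161 without 1 liver. The cause was not tested. Any change over the day (7487 to 8011), the 12 h component (2789 to 3420) and the difference from the control diet (3160 to 3685) stayed within 1.5 times their counts without 1 liver.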
